A study of Sus scrofa with 12 samples.

Results

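The genes described here belong to the heat shock response and the integrated stress response of pig PC-iPS cells, which are induced pluripotent stem cells made from pericytes. They were listed by name: HSPA8, HSP90AA1, HSPH1, DNAJB1 and HSPA5 for protein folding, and DDIT3, TRIB3, ASNS, ATF4 and CHAC1 for the integrated stress response. Of the 10 listed genes, 9 were found by symbol among 24358 genes in both expression tables, and HSP90AA1 was not analysed here. The question was whether the levels of these genes differed between WT, knock-in and treated cultures.

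Poly(A) RNA was sequenced from 12 libraries in 4 groups of 3. WT PC-iPS cells and PC-iPS cells with the NANOG tdTomato knock-in, a red fluorescent reporter placed at NANOG, were grown in LCDMV, a medium with LIF, CHIR, DIM, MIH and vitamin C, and share 1 table. The knock-in cells were obtained by sorting tdTomato-positive cells from transfected populations, so that they also passed through drug selection and sorting. Knock-in cells treated with Activin A, a ligand of the TGF-β family, or with SB431542, an inhibitor of the type I receptors for Activin and TGF-β, were described for a medium without LIF and share the other table. In all groups the dissociated cells were plated for 1 h before RNA extraction and the cells still in suspension were taken, which leaves attached feeder cells behind. Library numbers 1 to 3 within each group, and a developmental stage of adult, are given by the labels. By the study's methods and the sample titles, knock-in libraries 1 to 3 carry the names of 3 lines from separate transfections, each a mixed population rather than 1 clone. For the WT libraries nothing says that they came from separate cultures, and the labels do not say which line a treated library came from, so p-values measure only the spread between these libraries, which for WT may be technical.

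Heat shock proteins bind unfolded proteins. HSPA8 is the constitutive cytosolic Hsp70, DNAJB1 is an Hsp40 that delivers substrates to Hsp70, HSPH1 is an Hsp110 that exchanges nucleotide on Hsp70, and HSPA5 (BiP) is the Hsp70 of the endoplasmic reticulum. In the integrated stress response, kinases that sense amino acid shortage, unfolded proteins in the endoplasmic reticulum, double-stranded RNA or heme shortage phosphorylate the initiation factor eIF2. Translation then falls in general while that of ATF4 mRNA rises. ATF4 is a transcription factor that switches on amino acid synthesis, amino acid import and further regulators. Of its targets, DDIT3 encodes CHOP, a transcription factor linked to cell death, TRIB3 encodes a pseudokinase that binds ATF4 and CHOP, ASNS makes asparagine, and CHAC1 degrades glutathione. As ATF4 is regulated mainly in translation, its mRNA level is only part of its activity.

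Values are FPKM, that is, sequenced fragments corrected for transcript length and sequencing depth, and tests were made on log2(FPKM + 1), so that a fold change from the fit understates the change of genes with low FPKM. NANOG, the targeted gene, was at 9.71 to 27.6 FPKM in WT, 52.0 to 101 in knock-in, 109 to 195 in Activin A and 11.8 to 27.2 in SB431542 libraries. The 3 knock-in libraries did not overlap the 3 WT libraries. The study targeted NANOG loci on separate chromosomes that share the target sequence, and these values are of a single gene entry (ENSSSCG00000040403). How reads were divided between the loci was not tested. Of the pluripotent markers, SOX2, LIN28A and SALL4 were detected in every library, TFCP2L1 and DPPA5 reached at most 0.0571 and 0.126 FPKM in any library, TDGF1 was at 0.599 FPKM in WT library 3 and at most 0.226 FPKM in the others, and no row was matched to POU5F1 or UTF1. CDX2, a defining trophectoderm marker, was at 0 in all 12 libraries. The 13 mitochondrial protein-coding genes took 13.9% to 16.4% of the summed FPKM in WT and 9.43% to 11.5% in the other groups. Read counts were not used here and total depth is unknown. Relative depth, estimated from steps among low values against knock-in library 1, was 0.563 to 0.637 in WT and 0.732 to 0.979 in the other 8 libraries. The estimate is the middle of a histogram bin, which puts knock-in library 1 itself at 0.993 rather than 1. Low values are thus least precise in WT.

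The 9 genes differed widely in level and in how much they varied over the 12 libraries. HSPA8, the most abundant, varied least, from 542 to 731 FPKM (1.35-fold between lowest and highest), and HSPH1 ranged over 1.38-fold and DNAJB1 over 1.51-fold. HSPA5 ranged over 2.47-fold, and most of that came from 1 WT library. The genes of the integrated stress response ranged from 2.22-fold for ATF4, less than HSPA5, and 2.66-fold for ASNS to 3.95-fold for DDIT3, 6.21-fold for TRIB3 and 32.01-fold for CHAC1. TRIB3 was the least abundant, at 0.652 to 4.05 FPKM.

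**Figure D1:**
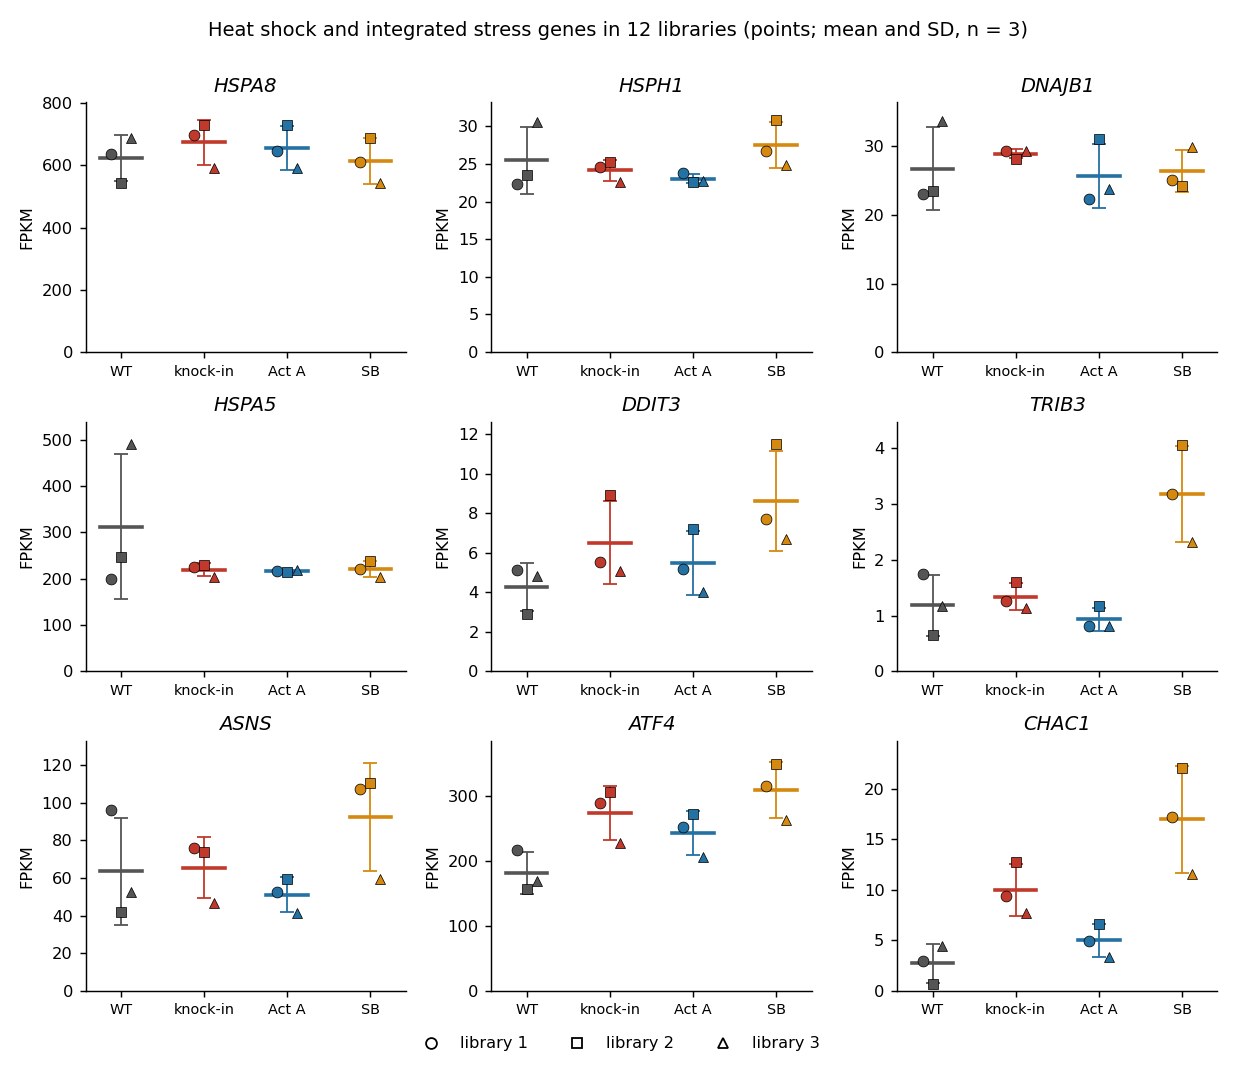
FPKM (vertical axes, each from 0) of the 9 genes in the 12 libraries, with the mean (bar) and SD (whiskers, n = 3) of each group and a marker shape for each library number. HSPA8 and DNAJB1 overlap between all groups, and HSPH1 does not overlap between Activin A and SB431542. WT library 3 stands at 492 FPKM for HSPA5, and TRIB3, ASNS, ATF4 and CHAC1 have their highest means in SB431542.

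The cytosolic chaperones were at like levels in knock-in and WT cells. HSPA8 (ENSSSCG00000015140, chromosome 9, 49982278 to 49986760 in the RefSeq annotation of Sscrofa11.1, which gives all positions here) stood at 699, 731 and 591 FPKM in knock-in libraries 1 to 3 and at 638, 543 and 690 FPKM in WT libraries 1 to 3. The groups overlapped, with a log2 fold change of 0.11 (SE 0.13, 95% confidence interval -0.20 to 0.42, limma adjusted p = 0.61). HSPH1 (ENSSSCG00000009334, chromosome 11, 7733874 to 7759528) stood at 24.5, 25.2 and 22.6 FPKM in knock-in and at 22.3, 23.6 and 30.5 FPKM in WT libraries, a log2 fold change of -0.06 (interval -0.38 to 0.25, limma adjusted p = 0.79). All 3 knock-in values lay within the range of the WT values. DNAJB1 (ENSSSCG00000013784, chromosome 2, 64761672 to 64764482) stood at 29.3, 28.1 and 29.3 FPKM in knock-in and at 23.1, 23.4 and 33.7 FPKM in WT libraries, a log2 fold change of 0.13 (interval -0.23 to 0.49, limma adjusted p = 0.61). For each of these genes the interval leaves out a change of 2-fold in either direction.

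HSPA5, the chaperone of the endoplasmic reticulum (ENSSSCG00000005601, chromosome 1, 265930044 to 265934959), was at 225, 230 and 205 FPKM in knock-in libraries and at 199, 247 and 492 FPKM in WT libraries. WT libraries 1 and 2 lay around the knock-in values and WT library 3 lay far above them. The log2 fold change was -0.40 (SE 0.30, interval -1.09 to 0.30, limma adjusted p = 0.41), and without WT library 3 it was -0.01.

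Of the integrated stress genes, ATF4 and CHAC1 were higher in all 3 knock-in libraries than in any WT library, and neither passed the threshold of an adjusted p of 0.05. ATF4 (ENSSSCG00000000084, chromosome 5, 8742964 to 8745752) stood at 289, 307 and 228 FPKM in knock-in and at 218, 157 and 169 FPKM in WT libraries. On the log2 scale the difference was 0.60 (SE 0.16, interval 0.22 to 0.97, limma adjusted p = 0.066), a 1.51-fold difference, and an exact two-sided permutation test gave p = 0.1, the smallest value that 3 against 3 libraries allow. CHAC1 (ENSSSCG00000038521, chromosome 1, 130360510 to 130363332) stood at 9.38, 12.8 and 7.72 FPKM in knock-in and at 2.97, 0.691 and 4.47 FPKM in WT libraries, the widest gap among the 9 genes in this comparison. Its log2 fold change was 1.70 (SE 0.41, interval 0.73 to 2.66, limma adjusted p = 0.052), or 3.24-fold on the scale of FPKM + 1, and the exact permutation p was again 0.1. Over the alternative settings the adjusted p of CHAC1 ranged from 0.032 to 0.15 and that of ATF4 from 0.046 to 0.20, on both sides of the threshold. CHAC1 without WT library 3 gave a log2 fold change of 2.06 and passed (limma adjusted p = 0.032).

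The remaining 3 genes of this arm overlapped between knock-in and WT cells. DDIT3 (ENSSSCG00000040751, chromosome 5, 22785441 to 22789867) stood at 5.53, 8.95 and 5.09 FPKM in knock-in and at 5.13, 2.91 and 4.81 FPKM in WT libraries, a log2 fold change of 0.50 (SE 0.25, limma adjusted p = 0.23). TRIB3 (ENSSSCG00000039862, chromosome 17, 34808273 to 34819592) stood at 1.26, 1.603 and 1.14 FPKM in knock-in and at 1.74, 0.652 and 1.17 FPKM in WT libraries, a log2 fold change of 0.12 (SE 0.20, limma adjusted p = 0.72). ASNS (ENSSSCG00000015340, chromosome 9, 77318341 to 77336290) stood at 75.7, 73.7 and 46.6 FPKM in knock-in and at 95.9, 42.1 and 52.3 FPKM in WT libraries, a log2 fold change of 0.10 (SE 0.31, limma adjusted p = 0.87). The WT libraries spread 2.28-fold for ASNS and 2.66-fold for TRIB3, more than the difference between the groups.

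In count, 0 of 9 genes passed an adjusted p of 0.05 in limma between knock-in and WT cells, and 2 of 9 were at an unadjusted p under 0.05, both higher in knock-in, beside 16.1% of all 14014 genes tested that were higher and 12.5% that were lower at that level. Of all genes, 4.88% passed the adjusted p as higher and 2.34% as lower in knock-in cells, and 1.61% and 0.706% passed with a log2 fold change of at least 1 as well. Values that did not overlap between the groups were found for 2 of 9 genes, both higher in knock-in, beside 19% of all genes higher and 16.7% lower. The share of the stress genes was near this background. The median log2 fold change was 0.12 over the 9 genes, 0.50 over the 5 integrated stress genes and 0.02 over the 4 chaperones, beside 0.00 over all genes tested. With 1 library left out these medians ran from 0.02 (without WT library 2) to 0.30 (without WT library 1) over the 9 genes, from 0.28 (without knock-in library 2) to 0.64 (without knock-in library 3) over the integrated stress genes, and from -0.06 (without WT library 1) to 0.13 (without WT library 3) over the chaperones.

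Activin A and SB431542 cultures differed in the integrated stress genes, all 5 of which were lower with Activin A in each of the 3 numbered pairs, beside 25.2% of all genes tested. The numbers pair these libraries: deviations from the group mean correlated between libraries of the same number. The test that ignores the numbers passed 0 of 9 genes, beside 0.0929% of all 13999 genes that passed as higher and 0.0429% as lower with Activin A. The test that uses the numbers as a block passed 5 of 9, all lower with Activin A, beside 1.66% of all genes as higher and 1.21% as lower, so both tests are given.

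CHAC1 stood at 4.96, 6.65 and 3.39 FPKM with Activin A and at 17.3, 22.1 and 11.6 FPKM with SB431542. The groups did not overlap, and the SB431542 value was 3.48, 3.32 and 3.42 times the Activin A value in pairs 1, 2 and 3, nearly the same ratio each time. The log2 fold change of Activin A against SB431542 was -1.58 (SE 0.28, limma adjusted p = 0.12), and with the block the SE was 0.07 and the adjusted p 0.0097. TRIB3 stood at 0.817, 1.17 and 0.817 FPKM with Activin A and at 3.18, 4.05 and 2.32 FPKM with SB431542, with ratios of 3.89, 3.46 and 2.84 in the 3 pairs. These groups also did not overlap, and the log2 fold change was -1.10 (SE 0.17, limma adjusted p = 0.093), with an adjusted p of 0.027 with the block.

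ASNS stood at 52.4, 59.7 and 41.4 FPKM with Activin A and at 107, 110 and 59.4 FPKM with SB431542. The lowest SB431542 library, number 3, lay below Activin A library 2, yet within pairs SB431542 was higher by 2.05, 1.85 and 1.43 times. In the fit it differed by a log2 fold change of -0.80 (SE 0.26, limma adjusted p = 0.29, and 0.040 with the block). DDIT3 stood at 5.18, 7.22 and 4.04 FPKM with Activin A and at 7.74, 11.5 and 6.69 FPKM with SB431542, with ratios of 1.49, 1.59 and 1.65. This was a log2 fold change of -0.57 (SE 0.24, limma adjusted p = 0.39, and 0.043 with the block). ATF4 stood at 252, 273 and 206 FPKM with Activin A and at 316, 349 and 263 FPKM with SB431542, and its ratios of 1.26, 1.28 and 1.28 spread least. Its log2 fold change was -0.35 (SE 0.14, limma adjusted p = 0.38), and with the block the SE was 0.04 and the adjusted p 0.032.

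The chaperones gave smaller differences, and none of the 4 passed in limma with or without the block. HSPH1 was at 23.7, 22.5 and 22.8 FPKM with Activin A and at 26.8, 30.8 and 24.8 FPKM with SB431542, which did not overlap. With CHAC1 and TRIB3 it made 3 of 9 genes whose values were lower with Activin A without overlap, beside 10.8% of all genes. Its log2 fold change was -0.24 (SE 0.09, limma adjusted p = 0.36, and 0.18 with the block), and it was the only chaperone at an unadjusted p under 0.05. HSPA8 was at 648, 730 and 592 FPKM with Activin A and at 613, 689 and 542 FPKM with SB431542, higher with Activin A in each pair and overlapping between groups (log2 fold change 0.10, interval -0.01 to 0.20 with the block, limma adjusted p = 0.23). HSPA5 was at 217, 215 and 219 FPKM with Activin A and at 221, 238 and 204 FPKM with SB431542 (log2 fold change -0.02, interval -0.18 to 0.13 with the block). DNAJB1 was at 22.3, 31.0 and 23.8 FPKM with Activin A and at 25.1, 24.2 and 29.9 FPKM with SB431542 (log2 fold change -0.05, interval -0.40 to 0.31 with the block), and its direction differed between pairs.

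**Figure D2:**
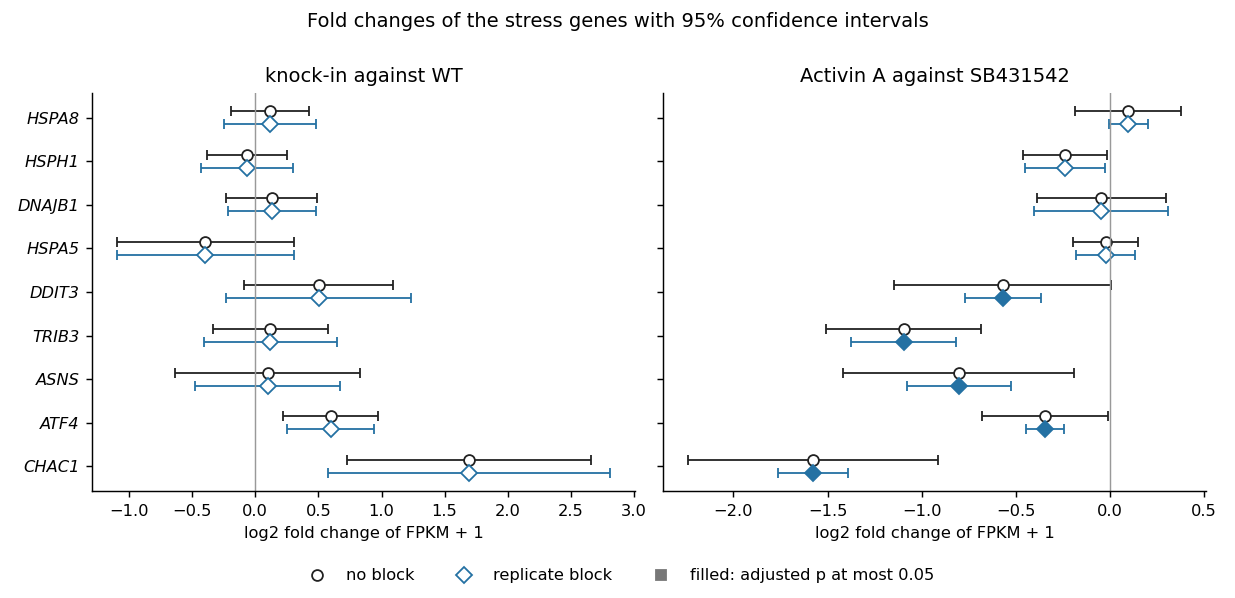
Log2 fold changes of FPKM + 1 (horizontal axes) with 95% confidence intervals for the 9 genes in both comparisons, without (circles) and with (diamonds) the replicate number as a block, filled where the adjusted p is at most 0.05. The filled symbols are DDIT3, TRIB3, ASNS, ATF4 and CHAC1 in the blocked fit of Activin A against SB431542, all below 0.

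Without the block, 5 of 9 genes were at an unadjusted p under 0.05, all lower with Activin A, beside 6.76% of all genes tested that were lower and 6.07% that were higher. With the block CHAC1 and TRIB3 were also past a log2 fold change of 1 in size, beside 0.521% of all genes as higher and 0.186% as lower. The 5 calls rest on all 3 pairs: with 1 pair left out, 0 genes passed without pair 1, 1 gene without pair 2 (CHAC1, limma adjusted p = 0.038) and 3 genes without pair 3 (CHAC1, ASNS and TRIB3), while all 5 log2 fold changes stayed negative in these fits. Of all genes, 0%, 0.162% and 0.406% passed as lower with Activin A without pairs 1, 2 and 3. The log2 fold change of CHAC1 ranged from -1.81 to -1.37 over all alternatives, that of TRIB3 from -1.74 to -0.95 and that of ATF4 from -0.46 to -0.23.

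Levels in the treated cultures can be set beside those of the untreated knock-in cells of the same number, with no test, since the table, the medium and the treatment cannot be told apart there. Deviations of same-numbered libraries also correlated between knock-in and treated groups. SB431542 was above knock-in in all 3 numbers for all 5 integrated stress genes and for 1 of the 4 chaperones, HSPH1, beside 19.6% of 14313 genes. TRIB3 was at 2.52, 2.52 and 2.04 times the knock-in value, CHAC1 at 1.84, 1.73 and 1.50025 times, ASNS at 1.42, 1.495 and 1.28 times, DDIT3 at 1.40, 1.28 and 1.31 times, and ATF4 at 1.10, 1.14 and 1.16 times. Activin A was below knock-in in all 3 numbers for the same 5 genes and for 0 of the 4 chaperones, beside 18.6% of genes. CHAC1 was at 0.528, 0.520 and 0.439 times the knock-in value, TRIB3 at 0.649, 0.729 and 0.717 times, ASNS at 0.692, 0.809 and 0.889 times, DDIT3 at 0.937, 0.806 and 0.795 times, and ATF4 at 0.872, 0.889 and 0.904 times. These 2 sets of ratios share the knock-in libraries and are not independent of each other.

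**Figure D3:**
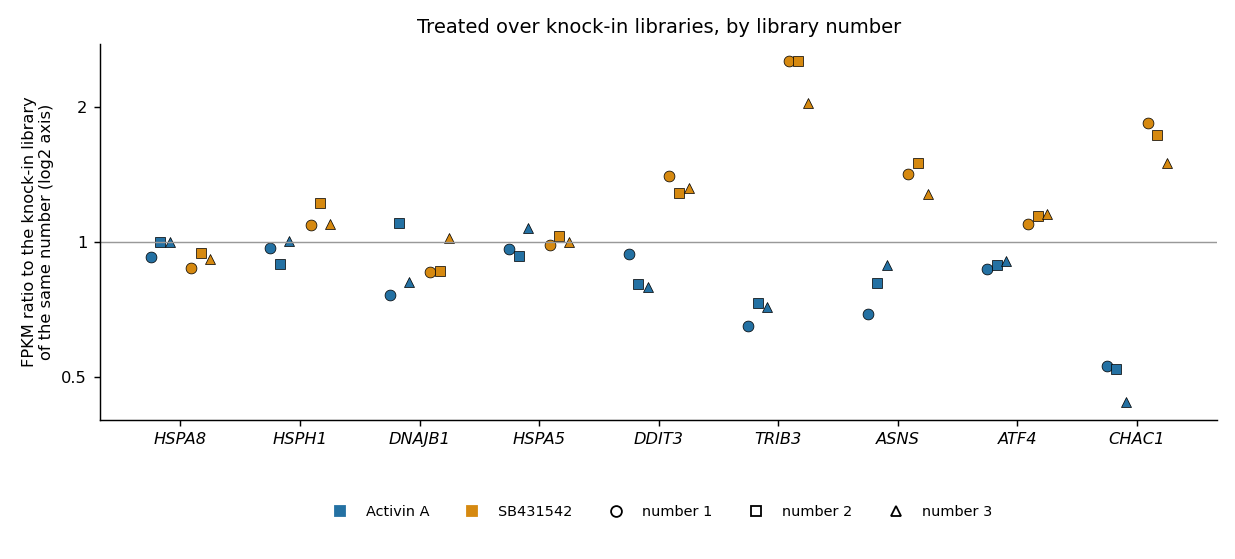
FPKM of each Activin A or SB431542 library over the knock-in library of the same number (vertical axis, log2 scale) for the 9 genes, with a marker shape for each number. For DDIT3, TRIB3, ASNS, ATF4 and CHAC1 all SB431542 points lie above 1 and all Activin A points below 1, and the points of HSPA5 lie between 0.932 and 1.07.

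Ordered by mean FPKM over the 4 groups, all 5 integrated stress genes were highest in SB431542 and second in knock-in. CHAC1 had means of 16.99 ± 5.28 (SD, n = 3) in SB431542, 9.96 ± 2.59 in knock-in, 4.9997 ± 1.63 in Activin A and 2.71 ± 1.90 in WT libraries. Of its neighbours in this order, only knock-in and Activin A did not overlap, as 5.06% of all genes did not in that direction. TRIB3 had means of 3.18 ± 0.863 in SB431542, 1.33 ± 0.241 in knock-in, 1.19 ± 0.542 in WT and 0.935 ± 0.203 in Activin A, and only SB431542 and knock-in did not overlap, as 5.56% of all genes did not in that direction. For the other 7 genes, all neighbours in the order overlapped. ATF4 had means of 309.7 ± 43.3 in SB431542, 274 ± 41.2 in knock-in, 244 ± 34.0 in Activin A and 181 ± 32.03 in WT libraries. HSPA5 means lay between 217 and 221 in the 3 groups of knock-in cells, and the WT mean was 313 ± 157.

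Within groups, some of the stress genes kept the same order of library numbers, a pattern chosen after the values were seen. HSPA8, DDIT3, ASNS, ATF4 and CHAC1 were lowest in library 3 of the knock-in, the Activin A and the SB431542 group alike, 5 of 9 genes beside 15.7% of all genes. HSPA8, DDIT3, TRIB3, ATF4 and CHAC1 were highest in library 2 of all 3 groups, 5 of 9 genes beside 10.4% of all genes. HSPH1, DNAJB1 and HSPA5 showed neither order. KRT8, a keratin of simple epithelia and trophectoderm, had the same order, with 96.7, 428 and 44.3 FPKM in knock-in, 100.04, 334 and 35.3 FPKM in Activin A and 200.1, 835 and 90.4 FPKM in SB431542 libraries 1 to 3. Of 7 tested trophectoderm markers, KRT8 among them, 4 were lowest in library 3 and 6 highest in library 2 of all 3 groups. TFAP2A, another of these markers, was lowest in library 1 of all 3 groups. The part of these markers in the spread of the stress genes was not tested.

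The other genes of the integrated stress response were taken from lists compiled from general knowledge, with earlier results of these data known. Their counts are therefore not an independent check of the stress genes above. Of 34 tested ATF4 target genes, 30 had a negative log2 fold change for Activin A against SB431542, and 22 of 34 were lower in all 3 pairs beside 25.2% of all genes, and the median was -0.37 beside 0.00 over all genes. Without the block 0 of 34 passed the adjusted p and 16 were at an unadjusted p under 0.05, all lower with Activin A, beside 6.76% of all genes. With the block 6 of 34 passed in limma, all lower with Activin A, beside 1.21% of all genes. They are named after their values were seen: PSAT1 and PSPH make serine, SLC7A11 imports cystine, EIF4EBP1 binds the cap-binding factor eIF4E, STC2 is a secreted glycoprotein, and NUPR1 is a small stress-induced nuclear protein. PSAT1 stood at 66.6, 70.4 and 50.5 FPKM with Activin A and at 131, 149 and 75.9 FPKM with SB431542 (log2 fold change -0.87, limma adjusted p = 0.034 with the block). PSPH stood at 22.7, 23.4 and 14.5 FPKM with Activin A and at 42.5, 48.6 and 22.7 FPKM with SB431542 (log2 fold change -0.84, limma adjusted p = 0.029 with the block). With 1 pair left out, 0 of the 34 targets passed without pair 1 or pair 2 and 6 without pair 3, of which 3 were among the 6 above, beside 0%, 0.162% and 0.406% of all genes that passed as lower in these fits.

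Among the same 34 targets, 4 rose and 1 fell in knock-in against WT cells, beside 4.88% and 2.34% of all genes, and the median was 0.29. With 1 library left out, 0 passed without knock-in library 2, 1 without knock-in library 1 or WT library 2, and 3 to 5 in the other 3 fits. Over the 6 fits with 1 library left out, 0.897% to 6.93% of all genes passed as higher and 0.231% to 3.43% as lower in knock-in cells, so the counts of all genes moved as well. ATF3, a stress-induced transcription factor, stood at 15.7, 31.2 and 12.7 FPKM in knock-in and at 4.71, 1.45 and 1.99 FPKM in WT libraries (log2 fold change 2.49, SE 0.40, limma adjusted p = 0.020). CEBPB, a transcription factor that pairs with ATF4, stood at 2.81, 3.32 and 3.94 FPKM in knock-in and at 1.15, 0.396 and 0.630 FPKM in WT libraries (log2 fold change 1.35, SE 0.19, limma adjusted p = 0.015). The amino acid transporters SLC1A5 and SLC7A1 rose by 0.74 and 0.73 on the log2 scale, and the lipoprotein receptor VLDLR fell by 0.99. SLC1A5, SLC7A1 and VLDLR were past the adjusted p alone and are named after their values were seen. ATF3 is also an immediate-early gene in many cells.

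Of 14 tested kinases and factors of the eIF2 pathway, 2 rose in knock-in cells and 0 fell, beside 4.88% and 2.34% of all genes, and 0 passed in 4 of the 6 fits with 1 library left out (each knock-in library and WT library 2). Both were regulatory subunits that direct a phosphatase to eIF2. PPP1R15A (GADD34), which is induced by stress, stood at 20.0, 30.6 and 23.9 FPKM in knock-in and at 12.3, 5.66 and 7.85 FPKM in WT libraries (log2 fold change 1.47, SE 0.26, limma adjusted p = 0.025, and 0.020 to 0.086 over the alternatives). PPP1R15B, the constitutive form, rose by 0.62 (limma adjusted p = 0.022), and is named after its values were seen. Between Activin A and SB431542 the median of the 14 was 0.01 (-0.04 to 0.05 with a library or pair left out) and 0 passed in limma with or without the block, with 2 and 4 at an unadjusted p under 0.05, beside 6.07% of all genes higher and 6.76% lower without the block and 11.8% and 11.9% with it. Of 19 aminoacyl-tRNA synthetases of the cytosol, several of which ATF4 also regulates, 3 rose in knock-in cells (median 0.14, and 0.05 to 0.24 with 1 library left out), beside 4.88% of all genes, and 0 passed in 3 of the 6 fits with 1 library left out (knock-in library 1 or 2, or WT library 2). With Activin A 1 passed as lower with the block (median -0.06, and -0.14 to -0.01 with a library or pair left out), beside 1.21% of all genes, and 0 with any 1 pair left out.

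The other chaperones moved little as a group. Of 33 tested cytosolic chaperones, co-chaperones and heat shock factors, 1 rose in knock-in cells and 0 fell, beside 4.88% and 2.34% of all genes, with a median of -0.03 (-0.04 to 0.03 with 1 library left out). Without WT library 3, 3 were higher and 2 lower, beside 6.93% and 3.43% of all genes in that fit, and with any other library left out 0 passed. It was CDC37, the Hsp90 partner for kinases (log2 fold change 0.65, limma adjusted p = 0.037), named after its values were seen. With Activin A against SB431542, 0 of 32 passed in limma with or without the block, 1 and 7 were at an unadjusted p under 0.05, and the median was 0.01. The 1 was higher with Activin A, beside 6.07% of all genes, and of the 7 with the block 3 were higher and 4 lower, beside 11.8% and 11.9% of all genes. HSP90AB1, the constitutive Hsp90, was at 508.7 to 732 FPKM in knock-in, 537 to 935 FPKM in WT, 570 to 685 FPKM in Activin A and 506 to 799.8 FPKM in SB431542 libraries, overlapping in both comparisons, and was also named after its values were seen.

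Of 32 genes of the unfolded protein response of the endoplasmic reticulum, 1 rose in knock-in against WT cells and 0 fell, beside 4.88% and 2.34% of all genes, with a median of 0.01 (-0.12 to 0.10 with 1 library left out). The gene was P4HB, a protein disulfide isomerase (log2 fold change 0.84, limma adjusted p = 0.028). Without WT library 3 the count was 4 of 32, all higher in knock-in, beside 6.93% of all genes in that fit, and the median was 0.10, and with any other library left out the count was 0. With the block, HYOU1, an Hsp110 of the endoplasmic reticulum that assists HSPA5, passed as lower with Activin A than with SB431542, 1 of 32 genes beside 1.21% of all genes, and 0 passed with any 1 pair left out. It stood at 32.7, 32.4 and 33.2 FPKM with Activin A and at 46.5, 50.3 and 44.6 FPKM with SB431542 (log2 fold change -0.51, limma adjusted p = 0.034). P4HB and HYOU1 are named after their values were seen.

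**Figure D4:**
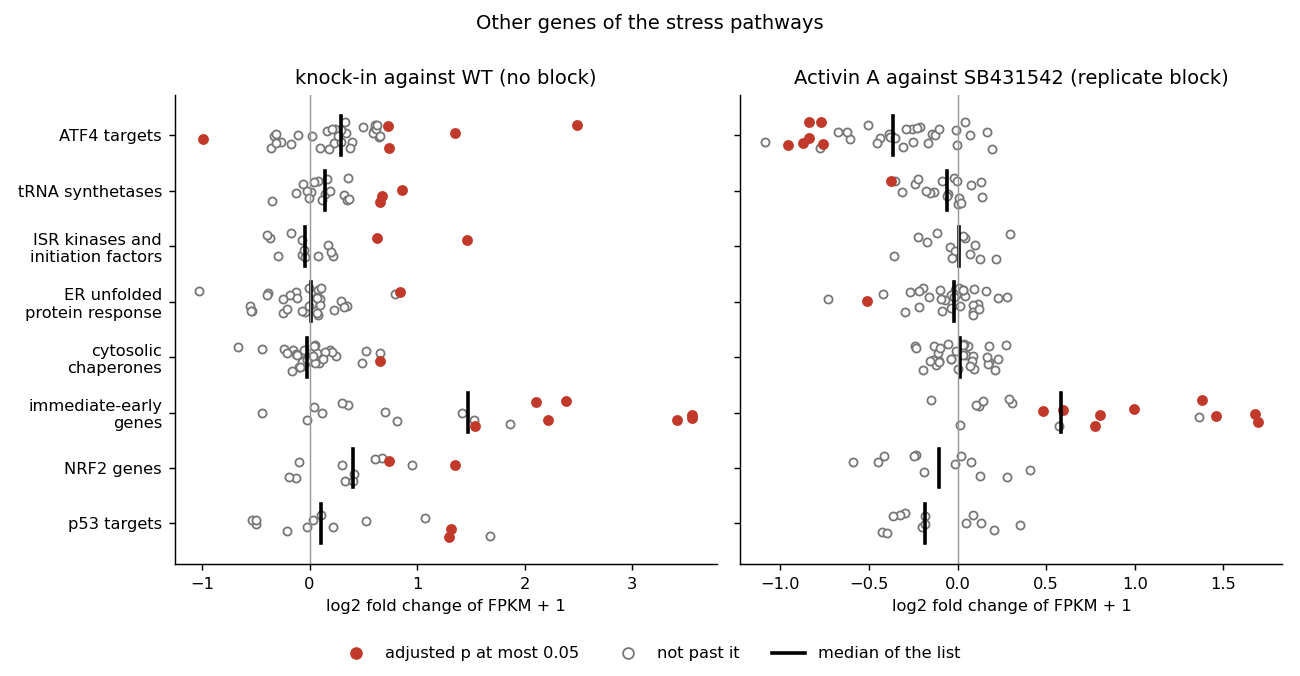
Log2 fold changes of FPKM + 1 (horizontal axes) of single genes (points, red where the adjusted p is at most 0.05) in 8 gene lists (rows) with the median of each list (black bars), for knock-in against WT without the block and Activin A against SB431542 with it. In the second comparison the ATF4 targets centre on -0.37 and the immediate-early genes on 0.58, and the other 6 lists have medians between -0.19 and 0.01.

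WT library 3 stood apart in the genes of the endoplasmic reticulum, which was noticed after the values were seen. It was the highest of the WT libraries for 26 of 32 genes of the unfolded protein response, beside 36.8% of all genes, and at least 1.5 times both other WT libraries for 12 of 32, beside 6.42%. The median ratio of library 3 to the mean of libraries 1 and 2 was 1.42 over these genes and 1.01 over all genes. HSPA5 was at 2.20 times that mean. SDF2L1, a binding partner of the HSPA5 system, stood at 3.70, 8.62 and 31.3 FPKM in WT libraries 1 to 3. HERPUD1, which acts in degradation of proteins from the endoplasmic reticulum, stood at 9.48, 7.14 and 26.1 FPKM, and HSP90B1, the Hsp90 of that compartment, at 201, 272 and 373 FPKM. Library 3 was also the highest for HSPA8, HSPH1 and DNAJB1, at 1.17, 1.33 and 1.45 times the mean of the other WT libraries. The 33 other cytosolic chaperones had a median ratio of 0.98, and library 3 was highest for 9 of them. Among the integrated stress genes it was highest only for CHAC1, and the ATF4 targets had a median ratio of 0.97.

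**Figure D5:**
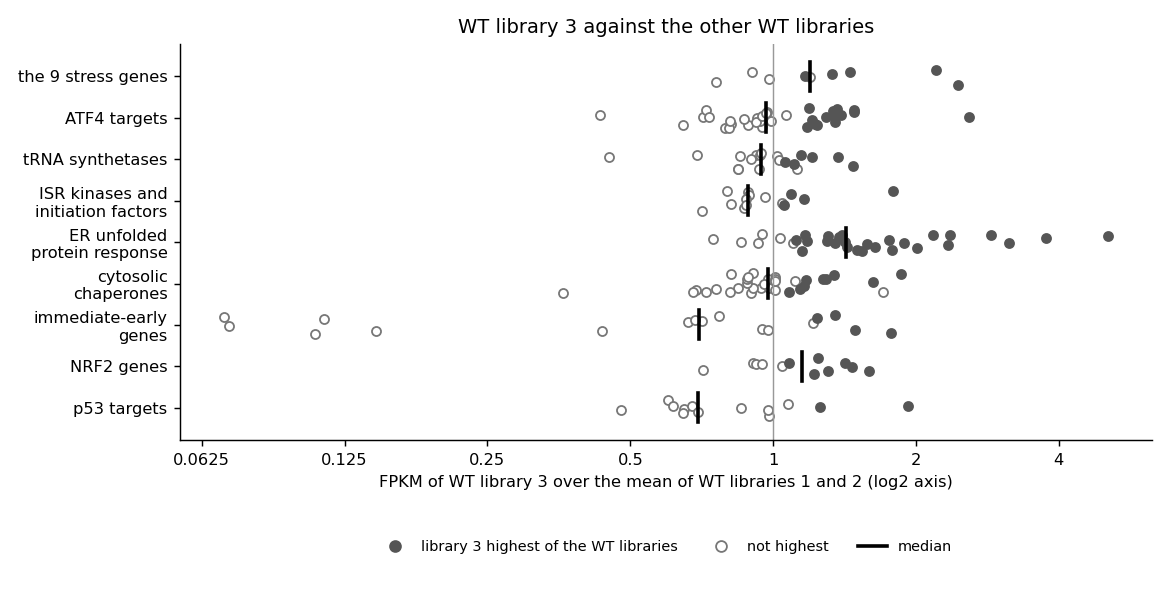
FPKM of WT library 3 over the mean of WT libraries 1 and 2 (horizontal axis, log2 scale) for the 9 stress genes and 8 gene lists (rows), with the median of each row (bars) and filled points where library 3 is the highest WT library; FOSB, at 0 in library 3, is off the axis. The median is 1.42 for the unfolded protein response and 0.70 for the immediate-early genes.

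Genes that respond to cell dissociation moved with the groups. Of 18 tested immediate-early genes, 7 rose in knock-in against WT cells and 0 fell, beside 4.88% and 2.34% of all genes, with a median log2 fold change of 1.47. NR4A1 stood at 53.3, 53.2 and 51.0 FPKM in knock-in and at 6.96, 2.59 and 3.39 FPKM in WT libraries (log2 fold change 3.42, limma adjusted p = 0.0020), and EGR3, FOSB, KLF6 and JUN rose by 3.55, 3.56, 2.22 and 2.11. FOS was at 51.0, 13.6 and 3.50 FPKM in WT libraries 1 to 3 and at 47.1, 69.3 and 48.2 FPKM in knock-in libraries, so that WT library 1 lay within the knock-in range. EGR1 was at 183, 64.6 and 14.0 FPKM in WT and at 65.3, 118 and 123 FPKM in knock-in libraries. For EGR1, WT library 1 lay above all knock-in libraries and the other WT libraries lay below them. Without WT library 3 the list's median was 0.87 and 8 genes passed, all higher, beside 6.93% of all genes in that fit. With Activin A against SB431542 the median was 0.58, against -0.37 for the ATF4 targets, and 0 of 18 passed in limma without the block (11 at an unadjusted p under 0.05, all higher, beside 6.07% of all genes) and 9 with it, all higher with Activin A, beside 1.66% of all genes. With 1 pair left out from the blocked fit, 0, 4 and 7 of the 18 passed without pairs 1, 2 and 3, beside 0.0147%, 0.382% and 0.62% of all genes as higher. FOS stood at 111, 191 and 119 FPKM with Activin A and at 37.9, 51.0 and 38.0 FPKM with SB431542 (log2 fold change 1.68, limma adjusted p = 0.011 with the block). EGR1 stood at 151, 328 and 304 FPKM with Activin A and at 53.4, 69.1 and 117 FPKM with SB431542. FOS and EGR1 are named after their values were seen. In this comparison the part of either list in the differences of the other was not tested.

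Of 12 genes of the NRF2 oxidative stress response, 2 rose in knock-in cells beside 4.88% of all genes. Without knock-in library 1 the count was 0, beside 0.897% of all genes higher in that fit. The median was 0.41, and OSGIN1 was past both thresholds (log2 fold change 1.35, limma adjusted p = 0.012). Of 13 p53 targets 2 rose, again beside 4.88% of all genes, PHLDA3 and BBC3 (log2 fold changes 1.296 and 1.32), with a median of 0.11. Without knock-in library 2, 1 p53 target passed, as higher, beside 1.02% of all genes in that fit. Without WT library 3, 2 were higher and 2 lower, beside 6.93% and 3.43% of all genes. With 1 library left out the median of the p53 targets ran from 0.02 to 0.19. With Activin A against SB431542 the medians of these lists were -0.10 and -0.19 (with a library or pair left out, -0.15 to 0.01 and -0.34 to -0.02), and 0 genes of either passed in limma with or without the block, while 0 and 3 were at an unadjusted p under 0.05 without it and 5 and 5 with it. The 3 p53 targets without the block were 1 higher and 2 lower with Activin A, beside 6.07% and 6.76% of all genes. With the block the 5 NRF2 genes were 1 higher and 4 lower with Activin A and the 5 p53 targets 2 higher and 3 lower, beside 11.8% and 11.9% of all genes.

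Markers of other cells also moved with the groups. The summed FPKM of 15 fibroblast and pericyte markers was 41.5 to 53.7 in WT, 377 to 518 in knock-in, 379 to 474 in Activin A and 355 to 474 in SB431542 libraries, and 4 of the 12 tested rose in knock-in cells, beside 4.88% of all genes, led by TAGLN (log2 fold change 4.21) and ACTA2 (2.61). TAGLN alone made 453 of the 518 FPKM in knock-in library 2. LUM reached at most 0.102 FPKM and COL1A1 at most 1.46 FPKM in any library, both in WT. The summed FPKM of 9 trophectoderm markers was 18.0 to 25.3 in WT, 87.6 to 528 in knock-in, 92.6 to 482 in Activin A and 133 to 961 in SB431542 libraries. Of the 7 tested, 3 rose in knock-in cells (KRT8, TFAP2A and TEAD4), beside 4.88% of all genes. Without knock-in library 1, WT library 1 or WT library 2 it was 1, beside 0.897%, 1.62% and 1.86% of all genes higher in these fits. KRT8 alone made 428 of the 528 FPKM in knock-in library 2 and 835 of the 961 FPKM in SB431542 library 2. Their part in the differences of ATF4 and CHAC1 between knock-in and WT cells was not tested. In bulk RNA a change in the share of cells of a type and a change in RNA per cell cannot be told apart. Of 8 tested pluripotent markers, 3 rose in knock-in cells and 0 fell, beside 4.88% and 2.34% of all genes. They were NANOG, LIN28A and SOX2, with log2 fold changes of 2.06, 2.08 and 0.605. Without knock-in library 1 the count was 0, beside 0.897% of all genes higher in that fit. NANOG carries the reporter on which the knock-in cells were sorted, so its rise is not independent of how they were obtained.

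Between Activin A and SB431542, the same marker lists moved in both directions, beside 1.66% of all genes as higher and 1.21% as lower with Activin A in limma with the block, and the genes named here are named after their values were seen. The summed fibroblast and pericyte markers overlapped, but TAGLN makes most of that sum, and with the block 2 of 12 markers passed as higher and 1 as lower. COL3A1, a fibrillar collagen, stood at 6.57, 7.47 and 42.9 FPKM with Activin A and at 0.0156, 0.215 and 2.73 FPKM with SB431542 (log2 fold change 3.08, limma adjusted p = 0.012 with the block). COL1A2, a chain of collagen I, stood at 21.3, 11.2 and 12.7 FPKM with Activin A and at 4.77, 3.24 and 4.66 FPKM with SB431542 (log2 fold change 1.59, limma adjusted p = 0.024 with the block). ACTA2, an actin of smooth muscle, was the lower one (log2 fold change -1.13, limma adjusted p = 0.035 without the block and 0.014 with it). Of the 7 trophectoderm markers, 0 passed without the block, and with it 2 were higher (GATA2 and TFAP2C) and 2 lower (KRT8 and TEAD4). GATA2 stood at 26.3, 38.9 and 21.7 FPKM with Activin A and at 2.15, 10.8 and 4.74 FPKM with SB431542, and TEAD4 at 9.15, 9.86 and 7.17 FPKM against 19.9, 15.3 and 11.98 FPKM. Of 9 tested pluripotent markers, 1 was higher with Activin A and 1 lower with the block. NANOG was higher (log2 fold change 3.18, limma adjusted p = 0.042 without the block and 0.011 with it). LIN28A, an RNA-binding protein, was lower (90.02, 200.04 and 67.5 FPKM with Activin A against 327, 498 and 192 FPKM with SB431542, limma adjusted p = 0.015 with the block and 0.27 without it). With 163, 285 and 108 FPKM in knock-in, LIN28A was highest in SB431542 and lowest in Activin A in each number, as the 5 integrated stress genes were. Of the 9 pluripotent markers, 2 had this order and 2, NANOG among them, the opposite order, beside 4.97% and 5.51% of all genes. With 1 library left out from the fit without the block, the ACTA2 call was lost in 6 of 6 fits and that of NANOG in 5 of 6, and over all alternatives their adjusted p reached 0.16 and 0.21. With 1 pair left out under the block, 0 markers of the 3 lists passed without pair 1. The part of these markers in the differences of the stress genes was not tested.

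For the 2 genes of each arm with the widest range of log2(FPKM + 1), the 3 genes most like them over the 12 libraries were found among 10500 named genes by the mean absolute difference of centred log2(FPKM + 1). HSPA5 was closest to KANSL3 (0.10), HSP90B1 (0.10) and TMEM136 (0.12). Most of the range of HSPA5 came from WT library 3, so its likeness to these genes rests largely on that library. DNAJB1 was closest to FBXO25 (0.09), CPT2 (0.09) and NAGK (0.10). DDIT3 was closest to SQSTM1 (0.10), DSC3 (0.11) and ZNF385D (0.13). CHAC1 was closest to VCL (0.31), ANGPTL4 (0.32) and MAP3K14 (0.36), at a wider distance than the other 3 genes. This distance is not scaled to a gene's own range, which was widest for CHAC1. Distances of different stress genes thus do not rank how well their profiles were matched.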

How the data were processed

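Expression was taken as deposited by the authors, as FPKM per gene in 2 tables of 6 libraries each. Per the labels and methods, reads were trimmed with Trim Galore, aligned to Ssc11.1 with HISAT2 2.0.4 and summarised as FPKM with StringTie 1.3.3 and Ensembl release 97. The authors tested featureCounts 1.6.4 read counts with DESeq2, and those counts and the resulting fold changes and p-values in the tables were not used here. FPKM is scaled to library and gene length, and no further scaling was applied.

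Tests never crossed the tables. A gene was tested where 3 or more of the 6 libraries reached 0.1 FPKM, a pseudocount of 1 was added, and limma 3.58.1 with a variance trend was run in R 4.3.3 (data.table version 1.17.8) on log2 values, with Benjamini-Hochberg adjustment over all genes. The thresholds were an adjusted p of at most 0.05, alone or together with a log2 fold change of 1 or more in size. Single genes also had an exact two-sided permutation test (scipy 1.17.1, pandas 2.3.3, Python 3.11.15, figures with matplotlib 3.10.9). The scripts were tested on simulated data.

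The labels' library numbers were checked by correlating deviations from group means across genes. Same-numbered Activin A and SB431542 libraries gave 0.40, 0.59 and 0.54, so the numbers were taken to pair these libraries and were used as a block beside the main fit. Knock-in libraries correlated with the same-numbered Activin A (0.50, 0.64 and 0.66) and SB431542 libraries (0.51, 0.63 and 0.57).

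The 9 genes and the other lists were chosen with earlier results of these data known. From the other lists, genes past both thresholds were named, at most 5 per list and comparison by adjusted p, and further names are marked. The deposited files gave symbols for 17451 genes, and a separate reference of gene names gave them for 965 more. A planned search for promoter motifs was not run, as no sequence was used here. Alternatives were other pseudocounts (0.1 and 0.01), other filters (none, and 1 FPKM), other scalings (TPM, quantile and median-ratio), a fit without the variance trend, the block, and each library left out. Leaving out each pair under the block was added after the data were seen.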

Additional observations from a re-analysis of the deposited data

How the results depend on the processing

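Between knock-in and WT cells, 1012 genes passed the adjusted p and 324 both thresholds. Pseudocounts of 0.1 and 0.01 gave 538 and 501 past both, no filter gave 585 and 199, and leaving out a library gave 156 (without knock-in replicate 1) to 1432 (without WT replicate 3) and 145 to 446. The replicate block gave 360 past the adjusted p; same-numbered libraries of these groups correlated at only -0.02, 0.01 and 0.09, so the numbers do not pair them. Of the 9 stress genes 0 passed, and 1 passed with a filter of 1 FPKM (CHAC1), with TPM (ATF4) and without WT replicate 3 (CHAC1), so that leaving out a library gave 0 to 1. The log2 fold change of ASNS turned from 0.10 to -0.018 with quantile normalization. With a library left out it ran from -0.15 to 0.44, that of HSPH1 from -0.15 to 0.068 and that of TRIB3 from -0.066 to 0.30.

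Between Activin A and SB431542, 19 genes passed the adjusted p and 13 both thresholds. A pseudocount of 0.01 gave 8 and 8, no filter 11 and 5, a filter of 1 FPKM 5 and 5, no variance trend 10 and 7, and a library left out 0 to 5 and 0 to 5. The replicate block gave 403 and 99, and with pair 1, 2 or 3 left out 2, 74 and 139, and 2, 66 and 87. Of the stress genes 0 passed, against 5 with the block and 0, 1 and 3 with pair 1, 2 or 3 left out. With a library left out, the log2 fold change of DNAJB1 ran from -0.18 to 0.045 and that of HSPA5 from -0.079 to 0.030. Under the block, DNAJB1 was at 0.013 without pair 1 and 0.090 without pair 3, and HSPA5 at 0.038 without pair 2. The causes were not tested. Alternatives were counted over both comparisons for the stress genes and for genes of the other lists past both thresholds without the block. At most 5 genes per other list and comparison were taken, by adjusted p. For the genes so taken, 556 alternatives kept direction and side of the threshold, 52 lost and 12 gained a call, and 13 turned direction. Other named genes, such as PSAT1 and COL3A1, were not part of these counts. Scalings moved the median of all genes by less than 0.03. Read counts were not used, so what depth limits was not measured per gene.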
